A study of Mus musculus with 4 samples.

Results

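The integrated stress response and the unfolded protein response were followed through 36 genes in mouse embryonic stem cells, of 54838 gene identifiers counted. The genes were taken by symbol in GENCODE M21 (mouse build GRCm38) and fall into 12 genes of the ATF4 arm, 16 genes of the endoplasmic reticulum (ER) folding arm and 8 regulators. They matched 37 identifiers, since the symbol Ddit3 names 2 gene models, and all 36 genes passed the low-count filter that left 15191 genes to be tested. Wild-type cells were the E14 line (E14Tg2a.4, strain 129/Ola). Knock-in cells were MLC460, derived from it with CRISPR/Cas9, in which monomeric enhanced green fluorescent protein (mEGFP) is joined to the N-terminal end of endogenous p300, a histone acetyltransferase and transcriptional coactivator. Both lines grew in 15% serum with 1000 U/ml leukemia inhibitory factor on gelatin and received no other treatment per the labels. Each line was sequenced as 2 biological replicates, with 18946731 to 26553998 counts assigned to genes per library, of which 0.724% to 0.772% fell on the 36 genes. MLC460 is 1 line, so anything that arose while it was derived cannot be told apart from the tag, and with 2 libraries a line the p-values measure the spread between these libraries. The comparison shows whether the stress-response genes of the tagged line differ from those of its parent, and whether the ATF4 arm and the ER folding arm differ in the same direction.

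The integrated stress response starts with kinases that phosphorylate the translation initiation factor eIF2 on its alpha subunit. General translation then slows while the transcript of ATF4, a bZIP transcription factor, is translated more, and ATF4 raises genes of amino acid supply, redox balance and stress signalling. The unfolded protein response starts in the ER membrane, where PERK feeds into the eIF2 branch while IRE1 and ATF6 activate the factors XBP1 and ATF6 for chaperones, oxidoreductases and degradation factors of the ER.

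The arms carry different short motifs near their transcription starts, and the windows are shown because the arms are compared below. RefSeq promoter windows (GRCm38.p6, 250 bases before to 50 bases after each start) were found for 31 of the 36 genes. The ER stress element, searched on both strands as CCAAT and CCACG separated by 9 bases, was present in 7 of 14 ER folding genes with a window, in 0 of 11 ATF4 arm genes and in 0.137% of all 27025 genes with a window. The ER folding genes with it were Hspa5, Hsp90b1, Dnajc3, Pdia6, Calr, Canx and Creld2. In the 4 windows below it stands in capitals, in Calr and Creld2 on the other strand, so that it reads CGTGG first and ATTGG last. In Hspa5 it lies at -65 to -47 from the RefSeq start, in Canx at -145 to -127, in Calr at -162 to -144 and in Creld2 at -126 to -108.
Hspa5 (chr2:34772000-34772068, plus strand): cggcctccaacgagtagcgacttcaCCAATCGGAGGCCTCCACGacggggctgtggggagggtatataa
Canx (chr11:50325775-50325843, minus strand): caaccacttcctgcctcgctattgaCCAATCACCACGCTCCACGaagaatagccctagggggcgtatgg
Calr (chr8:84847050-84847118, minus strand): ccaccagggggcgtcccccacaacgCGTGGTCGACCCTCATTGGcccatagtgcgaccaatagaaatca
Creld2 (chr15:88819495-88819563, plus strand): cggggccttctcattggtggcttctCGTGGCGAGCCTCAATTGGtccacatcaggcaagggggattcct

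The C/EBP-ATF response element, the kind of site that ATF4 and C/EBP proteins bind together, was searched on both strands as TGATGNAA. It was present in 5 of 11 ATF4 arm genes with a window (Atf3, Trib3, Asns, Chac1 and Slc7a11), in 1 of 14 ER folding genes (Herpud1) and in 4.51% of all genes with a window. Slc7a11 held 2 copies, on opposite strands. Herpud1 also held the only match among the 36 genes to ERSE-II, searched as ATTGG and CCACG separated by 1 base, which 0.0444% of all genes with a window carry. TGACGTGG, a core of the unfolded protein response element, was in none of the 31 genes and in 0.714% of all genes with a window. Capitals mark the matches, and a match describes the letters only.
Chac1 (chr2:119351024-119351081, plus strand): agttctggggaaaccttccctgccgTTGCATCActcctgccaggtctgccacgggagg
Slc7a11 (chr3:50443628-50443704, minus strand): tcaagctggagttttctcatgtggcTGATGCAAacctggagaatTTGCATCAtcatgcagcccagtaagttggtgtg
Atf3 (chr1:191183411-191183468, minus strand): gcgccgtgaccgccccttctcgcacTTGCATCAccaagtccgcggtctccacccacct
Herpud1 (chr8:94386292-94386412, plus strand): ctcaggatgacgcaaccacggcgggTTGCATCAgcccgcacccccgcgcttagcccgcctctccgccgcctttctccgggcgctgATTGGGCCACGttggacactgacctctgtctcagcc

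One library stood apart before any comparison. For each gene tested, the log2 difference of wild-type 2 from the mean of the 4 libraries increased with the GC content of the gene's exons. Spearman's rho was 0.66 over 15191 genes, a description, since genes are not independent replicates. In wild-type 1 rho was -0.28, and in knock-in 1 and 2 it was -0.36 and -0.44. The mean includes wild-type 2, so these negative values are not independent of its positive one. Over the 36 genes rho was 0.80 in wild-type 2. The exons of the ATF4 arm had a median GC content of 54.6%, against 46.5% in the ER folding arm and 49.7% in all genes tested. For the 36 genes, the arms and the lists, log2 fold changes and their medians with all libraries are therefore followed by those without wild-type 2 and with a correction that subtracts each library's trend with GC content. In the plot of the deviation of wild-type 2 against exon GC content, Dnajb9 (40.4% GC) stood at -1.14 and Chac1 (57.4% GC) at 0.71 on the log2 scale.

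**Figure D1:**
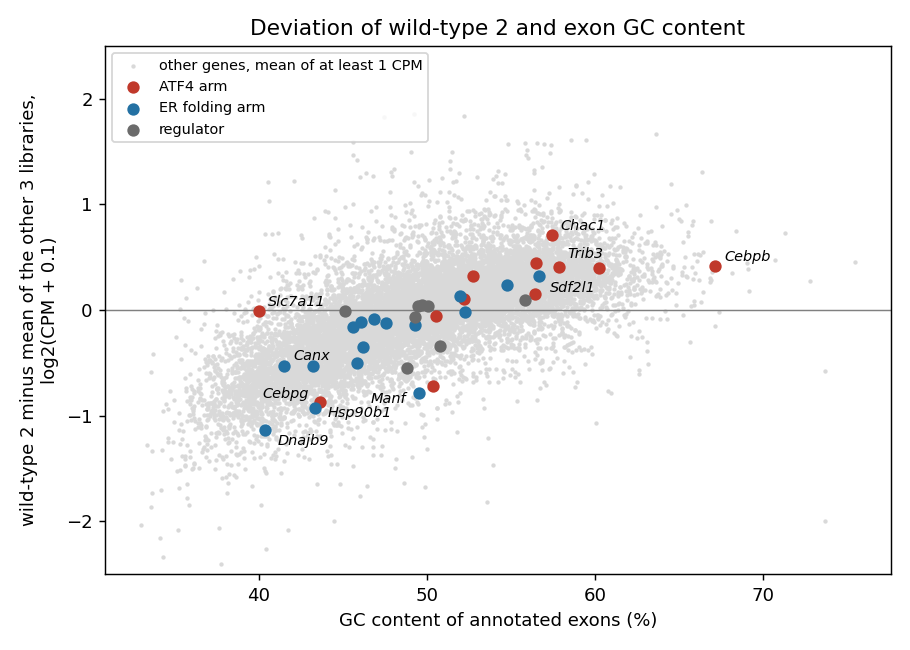
Each point is a gene, with exon GC content in percent on the x axis and the log2(CPM + 0.1) of wild-type 2 minus the mean of the other 3 libraries on the y axis. Grey points are other genes and coloured points the 36 genes, most ER folding genes lying to the left and below 0 and most ATF4 arm genes to the right and above 0.

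Transcripts of the tagged gene Ep300 stood at 209 and 210.0 CPM (counts relative to TMM-scaled library size) in wild-type 1 and 2 and at 181 and 210.4 CPM in knock-in 1 and 2, and those of its paralog Crebbp at 50.3, 58.4, 53.4 and 63.2 CPM in the same order. Neither passed (edgeR adjusted p = 0.804 and 0.835), and the counts do not separate tagged from untagged transcripts. Embryonic stem cell markers were present. Over 7 genes they summed to 5578 and 5513 CPM in wild-type and 6002 and 5634 CPM in knock-in cells. Of 6 fibroblast and feeder markers 4 were tested, and all 4 were lower in both knock-in libraries, where 23.9% of all genes were. Their summed levels were 35.8 and 38.8 CPM in wild-type and 21.9 and 23.7 CPM in knock-in cells. The median log2 fold change of the 4 was -0.91 with all libraries, -0.86 without wild-type 2 and -0.69 with the GC correction. Col3a1 and Postn, not tested, had 1 to 6 counts per library. Endoderm markers (5 of 7 tested) summed to 9.66 and 8.54 CPM in wild-type and 9.07 and 7.71 CPM in knock-in cells. Mesoderm markers (2 of 3 tested) summed to 10.2 and 9.13 CPM in wild-type and 7.14 and 7.07 CPM in knock-in cells. Neuroectoderm markers (3 of 3 tested) summed to 31.3 and 30.3 CPM in wild-type and 28.4 and 26.7 CPM in knock-in cells. In these 2 lists Eomes and Nes were lower in both knock-in libraries, while T, Pax6 and Sox1 overlapped between the lines. Trophoblast markers (2 of 5 tested) summed to 35.8 and 36.2 CPM in wild-type and 49.2 and 47.2 CPM in knock-in cells. Most of that sum was Tfap2c, at 34.2 and 34.9 CPM in wild-type and 47.4 and 44.7 CPM in knock-in cells. The log2 fold change of Tfap2c was 0.42 with all libraries (an edgeR adjusted p of 0.430) and 0.42 without wild-type 2. With the GC correction it was 0.58 and passed (an edgeR adjusted p of 0.0272), where 1.36% of all genes did. The untested trophoblast markers had few counts. Cdx2 had 3 and 3 in wild-type and 2 and 1 in knock-in cells, and Gata3 had 4 and 9 against 2 and 3. Elf5 had 2 and 3 against 0 and 0. The part of all these marker genes in the results below was not tested. In bulk RNA, fewer cells of a type and less RNA per cell cannot be told apart.

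The 36 transcripts spanned a wide range of levels in these cells. Per kilobase of annotated exon, the highest mean levels were 261 CPM for Asns, 238 for Calr, 195 for Slc7a5 and 182 for Hspa5, and the lowest were 1.12 for Slc7a11, 2.48 for Ern1 and 3.52 for Cebpb. Asns lay above 99.0% of the genes tested and Slc7a11 above 27.3%. The place of Slc7a11 depends on its 13922 bases of annotated exon, the most of the 36 genes. Before division by length its mean was 15.6 CPM, against 5.29 CPM for Cebpb and 10.5 CPM for Ddit3. The median level per kilobase was 141 CPM over the 5 ATF4 targets and 82.2 CPM over the 13 ER folding factors, against 6.13 CPM over the 7 ATF4 factors, 6.66 CPM over the 3 kinases and 3.98 CPM over all genes tested. The other medians were 26.5 CPM over the 2 phosphatase subunits, 8.63 CPM over the 3 ER sensors and 7.47 CPM over the 3 ER degradation genes. By these medians the ATF4 targets and the ER folding factors were more abundant than the regulators. The degradation genes lay below the ER sensors. Single genes departed from this: Atf4 (103 CPM per kilobase), Trib3 (74.6) and Xbp1 (52.00) were high among the regulatory genes, and Dnajb9 (5.63) and Dnajc3 (7.59) were low among the folding factors, as Slc7a11 was among the targets.

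**Figure D2:**
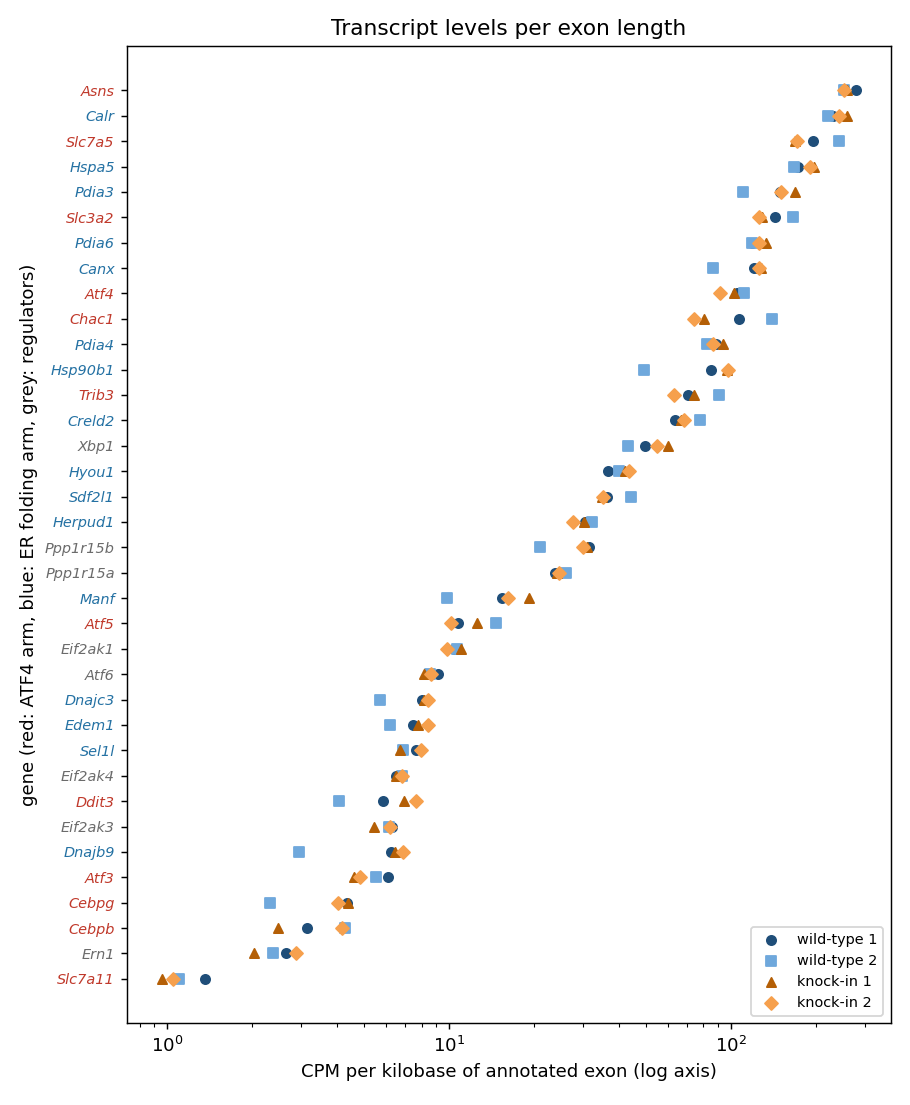
Levels of the 36 genes in each of the 4 libraries, in CPM per kilobase of annotated exon on a log axis, ordered by their mean. The libraries of both lines lie close together for most genes, from 1.12 for Slc7a11 to 261 for Asns, and wild-type 2 lies lowest for Hsp90b1, Dnajb9, Manf, Cebpg and Canx.

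No gene of the group passed the test between knock-in and wild-type cells. With all libraries 0 of 36 passed an edgeR adjusted p of 0.05, where 10 of the 15191 genes tested did (0.0658%). At an unadjusted p under 0.05 there were 4 genes (Ddit3, Chac1, Slc7a5 and Hsp90b1), a share close to the 10.9% of all genes. With the GC correction 0 of 36 passed, where 1.36% of all genes did, and 7 genes (Ddit3, Chac1, Slc7a11, Xbp1, Hsp90b1, Hyou1 and Manf) had an unadjusted p under 0.05, where 17.4% of all genes did. DESeq2 and limma-voom called 0 of 36 as well, where they called 123 and 4 genes in all. Both knock-in libraries were higher than both wild-type libraries for 13 genes, where 23.4% of all genes showed this, and lower for 8 genes, where 23.9% did. The remaining 15 genes overlapped between the lines.

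**Figure D3:**
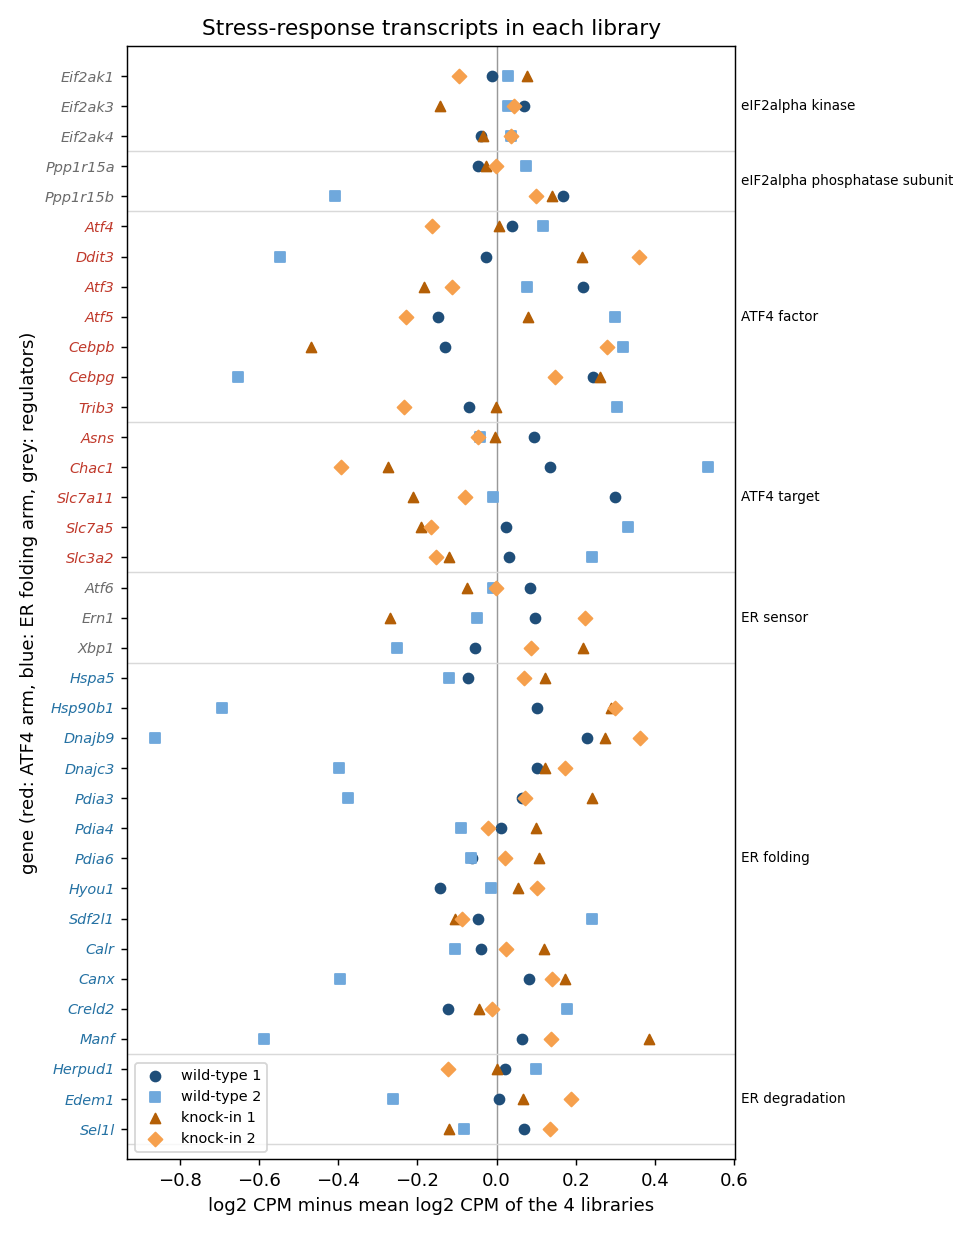
Each row is a gene, grouped by role, and each symbol a library, plotted as log2 CPM minus the mean of the 4 libraries. Wild-type 2 is the farthest point for many genes, reaching to the left for Dnajb9, Hsp90b1, Cebpg, Manf and Ddit3 and to the right for Chac1.

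The 3 kinases that phosphorylate eIF2 alpha differed little between the lines. Eif2ak1, which encodes HRI and responds to heme shortage and mitochondrial stress, had 59.1 and 60.8 CPM in wild-type 1 and 2 and 62.9 and 55.7 CPM in knock-in 1 and 2. Eif2ak3, which encodes the ER stress sensor PERK, had 37.96 and 36.96 CPM in wild-type 1 and 2 and 32.8 and 37.3 CPM in knock-in 1 and 2. Eif2ak4, which encodes GCN2 and senses uncharged tRNA, had 48.3 and 50.9 CPM in wild-type 1 and 2 and 48.5 and 50.9 CPM in knock-in 1 and 2. The lines overlapped for each kinase, and the log2 fold changes of knock-in over wild-type were -0.015 (95% interval -0.37 to 0.34), -0.096 (-0.47 to 0.28) and 0.0034 (-0.35 to 0.36) in that order. Without wild-type 2 they were -0.0082, -0.13 and 0.026, and with the GC correction 0.077, -0.027 and 0.081. About 8.59% of the Eif2ak1 exon bases are shared with Aimp2 on the other strand, and the counts do not use strand. The same limit holds for Eif2ak3 (8.05%, with Gm43292), Ppp1r15b (11.4%, with Gm26616), Hsp90b1 (10.3%, with 1810014B01Rik) and Ddit3 (3.97%, with Mars). It also holds for Manf (4.71%, with 4930524O07Rik, and 4.14%, with Dcaf1) and Atf5 (4.11% each, with Il4i1 and Nup62). Cebpb is given below, and smaller overlaps are left out.

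The phosphatase subunits that reverse this phosphorylation also overlapped between the lines. Ppp1r15a, which encodes the stress-induced subunit GADD34, had 70.2 and 76.3 CPM in wild-type 1 and 2 and 71.2 and 72.4 CPM in knock-in 1 and 2 (log2 fold change -0.028, SE 0.15), and its log2 fold change was 0.019 without wild-type 2 and 0.19 with the GC correction. Ppp1r15b, which encodes the constitutive subunit CReP, had 176 and 118 CPM in wild-type 1 and 2 and 173 and 168 CPM in knock-in 1 and 2. For Ppp1r15b only wild-type 2 was low, and its log2 fold change of 0.21 (SE 0.19, with an edgeR adjusted p of 0.679) was -0.062 without wild-type 2 and 0.27 with the GC correction.

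Among the 7 transcription factors and regulators of the ATF4 arm, 5 had lower and 2 had higher mean levels in knock-in cells, none past the threshold. Without wild-type 2 3 of 7 and with the GC correction 6 of 7 had a positive log2 fold change. With that correction 8896 of the 15191 genes tested were positive. Atf4 (ENSMUSG00000042406, chromosome 15, 80255184 to 80257541) had 248 and 262 CPM in wild-type 1 and 2 and 242 and 216 CPM in knock-in 1 and 2. Both knock-in libraries were below both wild-type libraries, by a log2 fold change of -0.15 (SE 0.15, with an edgeR adjusted p of 0.685) that was -0.13 without wild-type 2 and 0.071 with the GC correction. These are transcript levels, and ATF4 protein is set largely by translation, which was not measured. Trib3, which encodes a pseudokinase that is induced by ATF4 and restrains it, had 149.5 and 194 CPM in wild-type 1 and 2 and 157 and 134 CPM in knock-in 1 and 2. Wild-type 2 was the highest of these, and the log2 fold change of -0.24 (SE 0.17, with an edgeR adjusted p of 0.597) was -0.054 without it and 0.0086 with the GC correction.

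Ddit3 (ENSMUSG00000025408, chromosome 10, 127290774 to 127296288), which encodes CHOP, a factor of the late and pro-apoptotic phase of ER stress, was higher in both knock-in libraries, opposite to Atf4. It had 10.02 and 6.99 CPM in wild-type 1 and 2 and 11.9 and 13.1 CPM in knock-in 1 and 2, from 276 and 154 counts in wild-type and 289 and 245 counts in knock-in cells. The lines did not overlap, with a wild-type mean of 8.51 ± 2.14 CPM and a knock-in mean of 12.5 ± 0.884 CPM (± SD, n = 2 libraries each). The log2 fold change of Ddit3 was 0.55 (95% interval 0.025 to 1.07, SE 0.23, with an edgeR adjusted p of 0.445), 0.30 without wild-type 2 and 0.65 with the GC correction (an edgeR adjusted p of 0.105). The second gene model of that symbol lies inside the first on the same strand and had 0 counts in every library, and a read over the shared bases would be ambiguous between them.

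Atf3, which encodes a stress-induced bZIP factor, had 13.1 and 11.9 CPM in wild-type 1 and 2 and 9.94 and 10.4 CPM in knock-in 1 and 2. The knock-in pair lay below the wild-type pair, with a log2 fold change of -0.30 (SE 0.20, with an edgeR adjusted p of 0.562) that was -0.38 without wild-type 2 and -0.14 with the GC correction. Atf5, whose translation is controlled like that of Atf4, and Cebpb, a bZIP factor, overlapped between the lines with log2 fold changes of -0.16 and -0.17, both of which turned positive without wild-type 2 (0.073 and 0.049) and with the GC correction (0.11 and 0.086). Cebpb had 91 to 142 counts per library and shares 20.7% of its exon bases with Tmem189. Cebpg, which encodes a dimerization partner of ATF4, had 24.4 and 13.1 CPM in wild-type 1 and 2 and 24.7 and 22.8 CPM in knock-in 1 and 2. Only wild-type 2 was low for Cebpg, so its log2 fold change was 0.34 (SE 0.27) with all libraries, -0.050 without wild-type 2 and 0.23 with the GC correction.

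All 5 ATF4 targets had a negative log2 fold change, and for 4 of them both knock-in libraries lay below both wild-type libraries, where 23.9% of all genes did. Their median log2 fold change was -0.30 with all libraries, -0.22 without wild-type 2 and -0.13 with the GC correction, where Asns was positive (0.053). Chac1 (ENSMUSG00000027313, chromosome 2, 119351229 to 119354381), which encodes an enzyme that degrades glutathione and carries the element printed above, had 175 and 230.1 CPM in wild-type 1 and 2 and 131 and 121 CPM in knock-in 1 and 2. The highest knock-in library was below the lowest wild-type library, with a wild-type mean of 202 ± 39.2 CPM and a knock-in mean of 126 ± 7.34 CPM (± SD, n = 2 libraries each). The log2 fold change was -0.68 (95% interval -1.07 to -0.29, SE 0.17), with all libraries the largest in size of the 36 genes. It missed the threshold over the 4 libraries (an edgeR adjusted p of 0.237). With the GC correction Ddit3 (0.65), Slc7a11 (-0.60) and Manf (0.57) were larger in size. Chac1 was then at -0.43 (SE 0.12) and missed the threshold as well (an edgeR adjusted p of 0.0902). Without wild-type 2 it was -0.48 and passed (an edgeR adjusted p of 0.000424), the only one of the 36 genes to do so where 4.39% of all genes did. In that fit wild-type 1 is the only wild-type library and is assumed to vary like the knock-in pair.

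The amino acid transporters stood between Chac1 and Asns. Slc7a5 (ENSMUSG00000040010, chromosome 8, 121881150 to 121907694), which encodes the light chain LAT1 of an exchanger for large neutral amino acids, had 727 and 899 CPM in wild-type 1 and 2 and 626 and 637 CPM in knock-in 1 and 2. Its heavy chain Slc3a2 had 507 and 586 CPM in wild-type 1 and 2 and 457 and 446 CPM in knock-in 1 and 2. For both, wild-type 2 was highest and the knock-in libraries lay close together below wild-type 1. The log2 fold changes were -0.36 (SE 0.16, with an edgeR adjusted p of 0.447) and -0.28 (SE 0.15, with an edgeR adjusted p of 0.495). Without wild-type 2 they were -0.22 and -0.18, and with the GC correction -0.13 and -0.10.

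Asns, which encodes asparagine synthetase, had 760.0 and 692 CPM in wild-type 1 and 2 and 709.8 and 689 CPM in knock-in 1 and 2. The lines overlapped, with a log2 fold change of -0.054 (95% interval -0.38 to 0.27) that was -0.13 without wild-type 2. Slc7a11 (ENSMUSG00000027737, chromosome 3, 49892526 to 50443614), which encodes the cystine importer xCT and carries both copies of the element printed above, had 19.1 and 15.4 CPM in wild-type 1 and 2 and 13.4 and 14.7 CPM in knock-in 1 and 2. It was lower in both knock-in libraries, with a log2 fold change of -0.30 (SE 0.20, with an edgeR adjusted p of 0.561). It was the ATF4 arm gene with the lowest exon GC content, and the correction made its log2 fold change larger in size (-0.60, SE 0.16, with an edgeR adjusted p of 0.0766). It was -0.46 without wild-type 2.

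Of the 3 genes of ER sensing and its relay, Xbp1 was higher in both knock-in libraries and the others overlapped. Xbp1 (ENSMUSG00000020484, chromosome 11, 5520659 to 5525893), whose transcript is spliced by IRE1 into the form that encodes the active factor, had 161 and 141 CPM in wild-type 1 and 2 and 195 and 178 CPM in knock-in 1 and 2. Its log2 fold change was 0.30 (SE 0.15, with an edgeR adjusted p of 0.476), 0.20 without wild-type 2 and 0.42 with the GC correction (an edgeR adjusted p of 0.105). Counts per gene do not separate the spliced from the unspliced form. Atf6 had 84.4 and 79.1 CPM in wild-type 1 and 2 and 75.7 and 79.6 CPM in knock-in 1 and 2 (log2 fold change -0.075, SE 0.15, and -0.13 without wild-type 2 and -0.17 with the GC correction). Ern1, which encodes IRE1 alpha, had 21.5 and 19.5 CPM in wild-type 1 and 2 and 16.7 and 23.5 CPM in knock-in 1 and 2 (log2 fold change -0.032, SE 0.21, and -0.12 without wild-type 2 and 0.027 with the GC correction).

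Of the 13 ER folding factors, 11 had a positive log2 fold change and for 10 both knock-in libraries lay above both wild-type libraries, where 23.4% of all genes did. None passed the threshold. The median log2 fold change of the 13 was 0.19 with all libraries, 0.080 without wild-type 2 (12 positive) and 0.15 with the GC correction (13 positive). Hspa5 (ENSMUSG00000026864, chromosome 2, 34771970 to 34777547), which encodes BiP, the main Hsp70 chaperone of the ER, had 730.4 and 707 CPM in wild-type 1 and 2 and 837 and 806 CPM in knock-in 1 and 2. The knock-in libraries lay above the wild-type libraries, with a wild-type mean of 719 ± 16.3 CPM and a knock-in mean of 822 ± 21.4 CPM (± SD, n = 2 libraries each). The log2 fold change was 0.19 (95% interval -0.12 to 0.51, SE 0.14, with an edgeR adjusted p of 0.597), 0.16 without wild-type 2 and 0.12 with the GC correction. Calr, which encodes the lectin chaperone calreticulin, had 667 and 637 CPM in wild-type 1 and 2 and 745 and 697 CPM in knock-in 1 and 2. Both knock-in libraries were higher here too, with a log2 fold change of 0.15 (SE 0.14, with an edgeR adjusted p of 0.695, and 0.099 without wild-type 2 and 0.21 with the GC correction).

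The larger differences among the folding factors came with a low wild-type 2. Hsp90b1 (ENSMUSG00000020048, chromosome 10, 86690209 to 86705509), which encodes the ER form of Hsp90, GRP94, had 343 and 198 CPM in wild-type 1 and 2 and 391 and 394 CPM in knock-in 1 and 2. Wild-type 1 was much closer to the knock-in libraries than to wild-type 2, and the log2 fold change of 0.54 (SE 0.23, with an edgeR adjusted p of 0.448) was 0.18 without wild-type 2 and 0.42 with the GC correction. Dnajb9, which encodes the BiP cochaperone ERdj4, had 15.9 and 7.49 CPM in wild-type 1 and 2 and 16.5 and 17.5 CPM in knock-in 1 and 2. Its log2 fold change of 0.53 (SE 0.31, with an edgeR adjusted p of 0.518) was 0.075 without wild-type 2 and 0.31 with the GC correction. Manf, which encodes a secreted factor that binds BiP, had 54.3 and 34.6 CPM in wild-type 1 and 2 and 67.9 and 57.1 CPM in knock-in 1 and 2. All 3 of the other libraries were above wild-type 2, and the log2 fold change of Manf was 0.49 (SE 0.22, with an edgeR adjusted p of 0.459), 0.19 without wild-type 2 and 0.57 with the GC correction (an edgeR adjusted p of 0.107).

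Canx, which encodes the membrane-bound lectin chaperone calnexin, had 566 and 406 CPM in wild-type 1 and 2 and 603 and 589 CPM in knock-in 1 and 2, and its log2 fold change of 0.29 was 0.060 without wild-type 2 and 0.075 with the GC correction. The oxidoreductases Pdia3, Pdia4 and Pdia6 had log2 fold changes of 0.30, 0.079 and 0.13, and those of the cochaperone Dnajc3 and of Hyou1, a nucleotide exchange factor of BiP, were 0.27 and 0.15. Without wild-type 2 the oxidoreductases were at 0.080, 0.017 and 0.11, Dnajc3 at 0.030 and Hyou1 at 0.21. The GC correction gave 0.25, 0.079, 0.098, 0.13 and 0.31 in the same order. Sdf2l1, which encodes a component of an ER chaperone complex, had 40.2 and 49.1 CPM in wild-type 1 and 2 and 38.6 and 39.1 CPM in knock-in 1 and 2. It was the folding factor with the most negative log2 fold change (-0.20, SE 0.17, with an edgeR adjusted p of 0.655), with wild-type 2 the highest library, and was -0.063 without wild-type 2 and 0.034 with the GC correction. Creld2, which encodes a stress-inducible ER protein, overlapped between the lines (-0.063, and 0.080 without wild-type 2 and 0.15 with the GC correction). Of the 7 genes with the ER stress element, 6 had a positive log2 fold change, between 0.13 for Pdia6 and 0.54 for Hsp90b1, and Creld2 was the exception. All 7 were positive without wild-type 2, from 0.030 for Dnajc3 to 0.18 for Hsp90b1. A positive sign was not particular to them. Dnajb9, Pdia3 and Pdia4, with no match, and Hyou1 and Manf, with no window, were positive as well, from 0.079 for Pdia4 to 0.53 for Dnajb9. Without wild-type 2 these ran from 0.017 for Pdia4 to 0.21 for Hyou1. Sdf2l1, with no match, was negative in both settings.

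The 3 genes of ER-associated degradation did not share a direction. Herpud1, which encodes a membrane protein of the degradation complex and carries elements of both arms as printed above, had 71.2 and 75.1 CPM in wild-type 1 and 2 and 70.2 and 64.3 CPM in knock-in 1 and 2. The knock-in pair lay slightly lower, with a log2 fold change of -0.12 (SE 0.15, with an edgeR adjusted p of 0.772) that was -0.095 without wild-type 2 and 0.031 with the GC correction. Edem1, which encodes a lectin that directs misfolded glycoproteins to degradation, had 48.1 and 39.96 CPM in wild-type 1 and 2 and 50.1 and 54.6 CPM in knock-in 1 and 2. Here the knock-in pair lay higher (log2 fold change 0.25, SE 0.17, with an edgeR adjusted p of 0.575, and 0.11 without wild-type 2 and 0.20 with the GC correction). Sel1l, the adaptor of the ubiquitin ligase HRD1, had 65.3 and 58.8 CPM in wild-type 1 and 2 and 57.3 and 68.4 CPM in knock-in 1 and 2 and overlapped between the lines (0.017, and -0.072 without wild-type 2 and -0.038 with the GC correction).

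**Figure D4:**
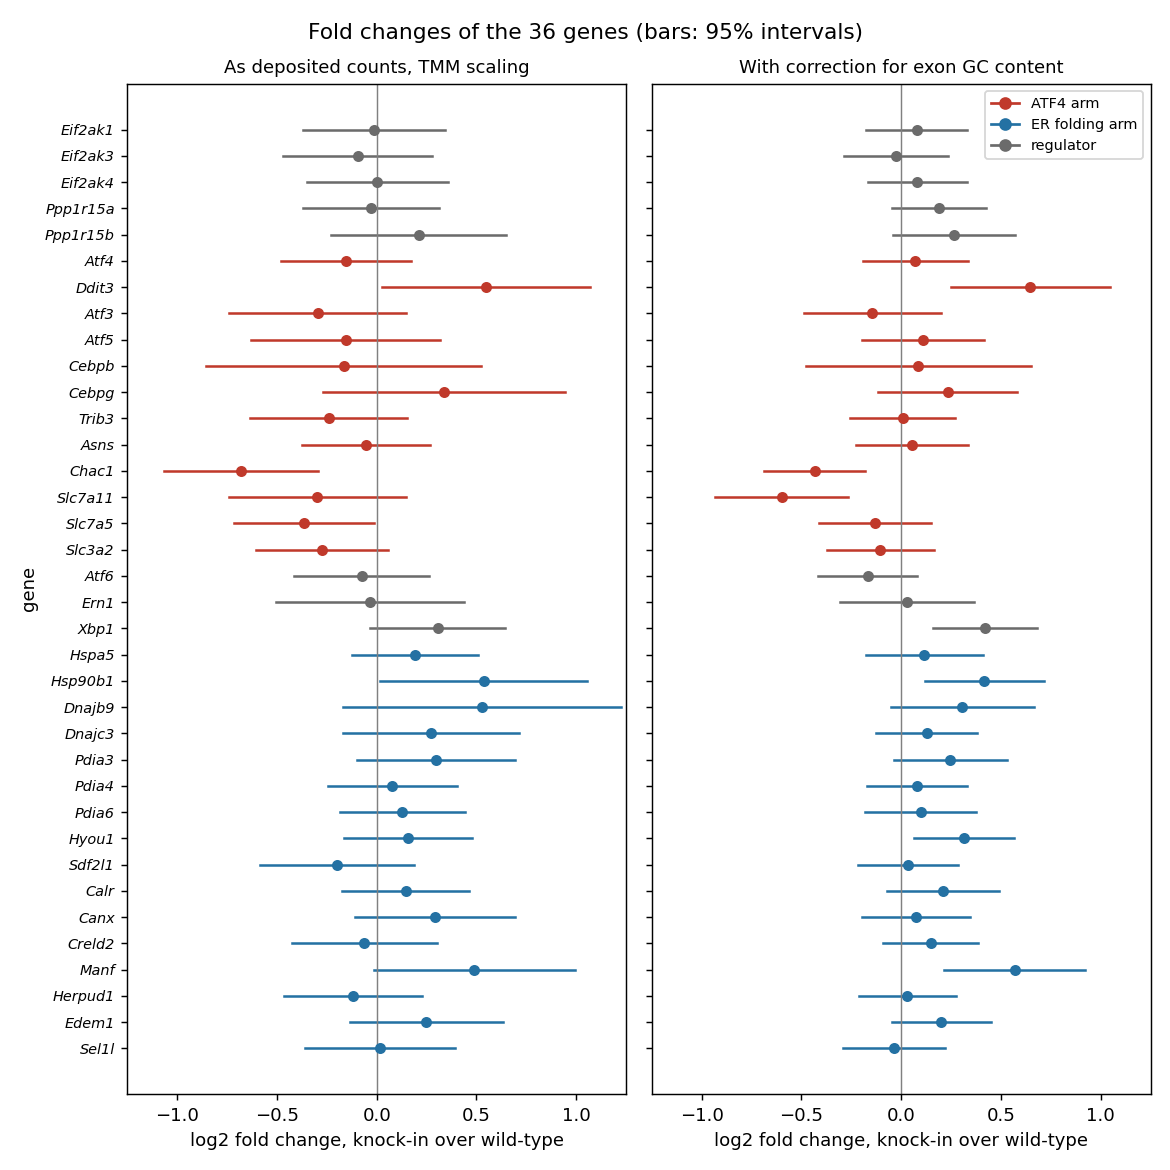
Log2 fold changes of knock-in over wild-type for the 36 genes with all libraries (left) and with the correction for exon GC content (right), with 95% intervals as bars. On the left 10 of 12 ATF4 arm genes lie below 0 and 13 of 16 ER folding arm genes above 0, and on the right 5 of 12 and 15 of 16.

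Set against each other, the arms differed in direction with all libraries. Of the 12 ATF4 arm genes 10 had a negative log2 fold change and the median was -0.20, while 13 of the 16 ER folding arm genes had a positive one and the median was 0.17. Over all genes tested, 7613 of 15191 were positive and the median was 0.00098. Both knock-in libraries were higher for 11 of 16 ER folding arm genes and for 1 of 12 ATF4 arm genes, where 23.4% of all genes were, and lower for 2 and 6, where 23.9% of all genes were. Among the 8 regulators Xbp1 alone was separated, and it was higher. These counts describe the lists, and no test was made over them.

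The difference between the arm medians was -0.38 (ATF4 minus ER folding) with all libraries. In single libraries, the median deviation of the ATF4 arm from the mean of the 4 libraries minus that of the ER folding arm was 0.019 in wild-type 1, 0.29 in wild-type 2, -0.18 in knock-in 1 and -0.22 in knock-in 2. Both wild-type libraries lay above both knock-in libraries, but wild-type 1 and 2 lay farther apart than wild-type 1 and either knock-in library. Without wild-type 2 the ATF4 arm had a median of -0.13, 3 of 12 genes being positive, and the ER folding arm one of 0.080, 13 of 16 being positive. The difference between the arm medians was then -0.21 and without wild-type 1 it was -0.49. With the GC correction the ATF4 arm had a median of 0.031, 7 of its 12 genes being positive, the ER folding arm a median of 0.14, 15 of 16 being positive, and all genes a median of 0.056. The difference between the arms was then -0.11, and by library it was 0.084, 0.11, -0.089 and -0.12 in the same order. The sign of the difference was the same in each of these settings, but its size was not. The sign of the ATF4 arm's own median was not the same either, though it lay below the median of all genes tested. The values were -0.20 against 0.00098 with all libraries, -0.13 against -0.0094 without wild-type 2 and 0.031 against 0.056 with the GC correction.

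**Figure D5:**
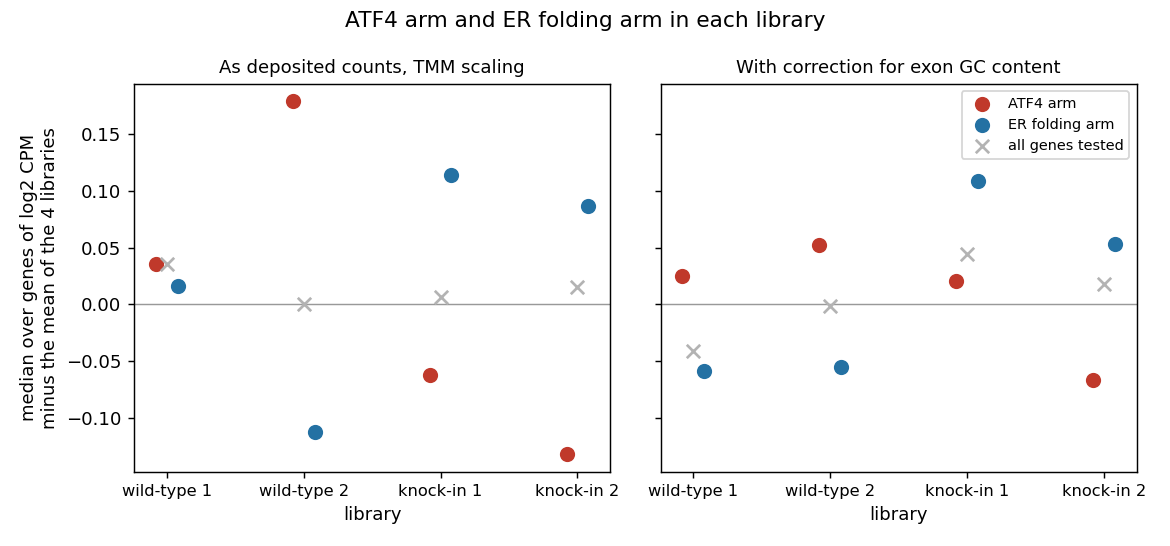
Median over the genes of each arm of log2 CPM minus the mean of the 4 libraries, for each library, with all genes tested as crosses, before (left) and after (right) the GC correction. On the left the arms differ by 0.29 in wild-type 2 and by 0.019 in wild-type 1, and the ATF4 arm lies below the ER folding arm in both knock-in libraries on either side.

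The gap within the wild-type pair was set beside the difference between the lines, on values without the GC correction. The gap between wild-type 1 and 2 was larger than the difference between the means of the lines for 23 of the 36 genes (63.9%), close to the 61.4% of all genes tested. This held for 6 of 12 ATF4 arm genes, among them Trib3 and Cebpg but not Chac1, Slc7a5 or Slc3a2, and for 11 of 16 ER folding arm genes, among them Hsp90b1 and Canx but not Hspa5 or Calr. Without wild-type 1, so that wild-type 2 was the only wild-type library and was assumed to vary like the knock-in pair, 17 of the 36 genes passed, where 32.1% of all genes did. Hsp90b1, Dnajb9, Dnajc3, Pdia3, Canx, Manf, Edem1, Xbp1, Ppp1r15b, Ddit3 and Cebpg were then higher, and Chac1, Slc7a5, Slc3a2, Trib3, Atf5 and Sdf2l1 lower. Over the 36 genes, Spearman's rho of the log2 fold change with exon GC content was -0.61 with all libraries and -0.18 without wild-type 2, a description of genes that share the same libraries.

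Further genes of the pathway, taken as 4 lists of 112 genes, gave 0 calls with all libraries and 4 with the GC correction, where 1.36% of all genes passed. Of 30 further ATF4-dependent genes, 25 had a negative log2 fold change (median -0.27, -0.15 without wild-type 2 and -0.12 with the GC correction, where 21 were negative). In 17 of the 30 both knock-in libraries were lower, where 23.9% of all genes were, and in 4 higher, where 23.4% were. In this list 3 genes fell with the GC correction, and 0 did when knock-in 1 or knock-in 2 was also left out. Ddit4, which encodes the mTORC1 inhibitor REDD1, had 329 and 367 CPM in wild-type 1 and 2 and 179.9 and 197 CPM in knock-in 1 and 2. Its log2 fold change was -0.89 (SE 0.15, with an edgeR adjusted p of 0.103), -0.82 without wild-type 2, and -0.65 with the GC correction, where it passed (an edgeR adjusted p of 0.0162). Stc2, which encodes the secreted glycoprotein stanniocalcin, had 97.5 and 123 CPM in wild-type 1 and 2 and 68.9 and 67.9 CPM in knock-in 1 and 2, with a log2 fold change of -0.69 (-0.52 without wild-type 2). Stc2 passed with the GC correction at -0.57 (an edgeR adjusted p of 0.0392). Aldh1l2, a mitochondrial enzyme of folate metabolism, had 47.1 and 46.6 CPM in wild-type 1 and 2 and 30.9 and 33.3 CPM in knock-in 1 and 2, with a log2 fold change of -0.55 (-0.57 without wild-type 2). Aldh1l2 passed with the GC correction at -0.55 (an edgeR adjusted p of 0.0392). All 3 were lower in both knock-in libraries with no overlap. The most abundant genes of the list, Shmt2 and Psat1 of serine and one-carbon metabolism, had log2 fold changes of -0.35 and -0.12, neither past the threshold, and -0.15 and -0.17 without wild-type 2 and -0.11 and -0.11 with the GC correction.

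None of the other 3 lists had a negative median. Over all genes tested the median log2 fold change was -0.0094 without wild-type 2 and 0.056 with the GC correction, where 8896 of 15191 were positive. The 18 cytosolic aminoacyl-tRNA synthetases, many of them ATF4-dependent as well, had a median log2 fold change of 0.0058, 11 being positive, which was 0.028 with 12 positive without wild-type 2 and 0.064 with 15 positive with the GC correction. Aars was at -0.11 and Nars at -0.034 with all libraries, at 0.0022 and -0.044 without wild-type 2 and at 0.073 and -0.057 with the GC correction. The 10 genes on the list of eIF2 and eIF2B subunits and related factors had a median of 0.23, 7 being positive, which was 0.15 with 9 positive without wild-type 2 and 0.17 with 10 positive with the GC correction. Eif2s2, which encodes the beta subunit of eIF2, had 673 and 381 CPM in wild-type 1 and 2 and 871 and 778 CPM in knock-in 1 and 2, wild-type 2 being lowest (log2 fold change 0.65, SE 0.24, with an edgeR adjusted p of 0.424, and 0.28 without wild-type 2 and 0.46 with the GC correction). Eif2s3x, the gamma subunit, had a log2 fold change of 0.24, 0.18 without wild-type 2 and 0.097 with the GC correction. The 54 further genes of ER folding, translocation and degradation had a median of 0.060, 32 being positive, which was 0.025 with 32 positive without wild-type 2 and 0.11 with 42 positive with the GC correction. Vcp was at 0.11 and P4hb at -0.012 with all libraries, at 0.19 and -0.030 without wild-type 2 and at 0.085 and 0.18 with the GC correction. Kdelr3, a receptor that returns ER proteins from the Golgi, had 32.2 and 33.5 CPM in wild-type 1 and 2 and 41.96 and 48.7 CPM in knock-in 1 and 2. It was higher in both knock-in libraries and passed with the GC correction (log2 fold change 0.46 with all libraries, 0.48 without wild-type 2 and 0.60 with the correction, with an edgeR adjusted p of 0.0276), where it was the only gene of its list to pass. With the correction and without knock-in 2 as well, 0 genes of that list passed.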

How the data were processed

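Total RNA was converted to libraries with an Illumina TruSeq RNA kit per the labels' protocols. The deposited tables hold raw counts of reads per gene, made by the authors with STAR 2.5.3a after Trim Galore on GRCm38 (mm10), per the submitters' processing notes. Their annotation release is not given in the sources used here. GENCODE M21 matched 54809 of 54838 identifiers, and the 29 others held 0.00107% of counts. The 4 summary rows of each table (unmapped, multimapping, outside features, ambiguous, the last 5.96% to 6.38% of reads) stayed out of library sizes and tests. The unstranded column was used, so overlapping genes on opposite strands cannot be told apart.

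Genes were tested with edgeR 4.0.16 in R 4.3.3: TMM scaling, filterByExpr (minimum count 10), quasi-likelihood F test, genotype alone as the model, Benjamini-Hochberg adjustment over 15191 genes and a threshold of 0.05. CPM are TMM-scaled. The GC correction fitted each library's log2 CPM deviation with a natural spline of exon GC content (5 degrees of freedom) and used it as an offset. The procedure was tested on simulated data. These were drawn with a lower dispersion than the fit without the GC correction gave (common dispersion 0.0237). Alternatives were DESeq2 1.42.0, limma-voom (limma 3.58.1), DESeq2 size factors, other low-count filters, a block for the replicate number, leaving out each library, and wider arms with the regulators included.

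The members and lists were chosen with earlier results of these data known. Values in every library are given for the members with the 2 highest means and the highest and lowest log2 fold change in each role, and for those over 0.5 in size. Listed pathway genes were named where they passed and for the 2 highest means per list. Slc3a2, Slc7a11, Cebpg, Manf and Canx are given in full outside that rule, chosen after their values were seen. For the arms only counts and medians are given, with no test.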

Additional observations from a re-analysis of the deposited data

How the results depend on the processing

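With 2 libraries a line, 1 library can decide a value. Over the fits that left out a library, with or without the GC correction, the number of genes past the threshold ran from 16 to 5015 (10 with all libraries), that of the 36 stress-response genes from 0 to 17 and that of the 112 listed pathway genes from 0 to 55, the highest each time without wild-type 1. With the GC correction these fits gave 1504, 648, 116 and 172 genes without wild-type 1, wild-type 2, knock-in 1 and knock-in 2, and the members that passed were 9 without wild-type 1, 0 without wild-type 2 or knock-in 1, and Manf alone without knock-in 2. The counts of all genes, members and listed genes were 354, 1 and 4 with no low-count filter (Chac1 being the member), 6, 0 and 0 with a stricter filter, 123, 0 and 1 with DESeq2, 4, 0 and 0 with limma-voom, and 207, 0 and 4 with the GC correction. The cause of these changes was not tested. With DESeq2, DESeq2 size factors and limma-voom all 36 members kept their sign.

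The replicate numbers did not pair the libraries: the differences of wild-type 2 from 1 and of knock-in 2 from 1 correlated at r = -0.12 over genes. A replicate block gave 197 genes, 0 members and 2 listed genes. With the GC correction the block gave 422, 3 and 6, the members being Ddit3 (0.66), Manf (0.59) and Slc7a11 (-0.59). Crossed pairing, added after the data were seen, gave 509 genes, 2 members and 4 listed genes, or 1328, 7 and 14 with the GC correction.

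The ATF4 arm median was 0.031 with the GC correction and 0.029 with the block added, and ran from -0.29 to 0.023 over the fits without a library. The ER folding arm median ran from 0.080 to 0.20 and was positive in every setting run. The difference between the arms was -0.11 with the GC correction, with or without the block, ran from -0.49 to -0.15 without a library, and was negative in every setting run. With regulators counted into the arms it was -0.31 with all libraries, -0.14 without wild-type 2 and -0.057 with the GC correction.

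Single genes changed sign, not only those near 0: Cebpg (0.34 with all libraries), Trib3 (-0.24), Ppp1r15b (0.21) and Sdf2l1 (-0.20) were among them. With the GC correction the median of all genes tested was 0.056. Trib3, Asns, Ern1, Sdf2l1 and Herpud1 turned positive there but stayed below that median. With the GC correction, alone and with the block, log2 fold changes were 0.077 and 0.074 for Eif2ak1, 0.19 and 0.19 for Ppp1r15a, 0.071 and 0.069 for Atf4, 0.11 and 0.10 for Atf5, 0.086 and 0.058 for Cebpb, 0.0086 and 0.0044 for Trib3, 0.053 and 0.054 for Asns, 0.027 and 0.014 for Ern1, 0.034 and 0.035 for Sdf2l1, 0.15 and 0.15 for Creld2, 0.031 and 0.029 for Herpud1 and -0.038 and -0.041 for Sel1l. Eif2ak4 and Sel1l were -0.016 and -0.0025 with no filter and -0.028 and -0.014 with the stricter one. Over the fits without a library, with or without the GC correction, values ran from -0.12 to 0.19 for Eif2ak1, -0.19 to 0.055 for Eif2ak3, -0.033 to 0.16 for Eif2ak4, -0.087 to 0.23 for Ppp1r15a, -0.062 to 0.53 for Ppp1r15b, -0.26 to 0.18 for Atf4, -0.36 to 0.27 for Atf5, -0.57 to 0.50 for Cebpb, -0.050 to 0.86 for Cebpg, -0.41 to 0.14 for Trib3, -0.13 to 0.12 for Asns, -0.29 to 0.25 for Ern1, -0.0025 to 0.17 for Pdia4, -0.34 to 0.083 for Sdf2l1, -0.20 to 0.23 for Creld2, -0.20 to 0.12 for Herpud1 and -0.13 to 0.12 for Sel1l. Cebpb had the fewest counts of the 36 genes, 91 to 142 per library.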
